A study of Mus musculus with 9 samples.

Results

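The Ly6 genes measured here are 9 mouse genes that encode small lymphocyte antigen 6 surface proteins, namely Ly6g, Ly6c1, Ly6a, Ly6d, Ly6e, Ly6f, Ly6h, Ly6i and Ly6k. Their probes were found by gene name in the scanner files, which gave 11 probes for the 9 genes, out of 55681 probes under 34797 names. Ly6c1 and Ly6h had 2 probes each and every other gene had 1. RNA came from Gr-1bright neutrophils that were sorted by flow cytometry from FVB/N mice whose skin had received the carcinogen DMBA when the mice were 6 and 13 weeks old and the tumor promoter PMA 2 times weekly from week 1 to week 18 to 20. The 4 groups were neutrophils from skin next to papillomas (papilloma skin, 2 arrays), skin next to carcinomas (tumor skin, 2 arrays), papillomas (3 arrays) and carcinomas (tumor, 2 arrays), and all 4 groups shared the DMBA and PMA treatment. No group of untreated mice was analysed here. For each array, neutrophils were purified from the pooled tissue of several mice, and the arrays were the replicates. Lesions were dissociated with collagenase, dispase and DNase and skin with collagenase alone, so that tissue and enzyme cannot be told apart.

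Ly6 proteins share a fold held together by disulfide bonds, the 3-fingered Ly6/uPAR domain, and most of them are tied to the outer face of the membrane by a glycolipid anchor. Ly6G is the standard surface marker of mouse neutrophils, Ly6C marks inflammatory monocytes and is also carried by neutrophils and some T cells, and Ly6A is the stem cell antigen Sca-1. The antibody against Gr-1 binds Ly6G and, more weakly, Ly6C, and antibodies against Gr-1, Ly6C and Ly6G were all in the stain used to sort these cells. The products of Ly6g and Ly6c1 were thus part of the cell selection, while their RNA was not. Ly6a, Ly6c1 and Ly6e are known to respond to interferons.

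All 9 genes lie on chromosome 15. In the reference annotation (GRCm38.p6) their order was Ly6d, Ly6k, Ly6e, Ly6i, Ly6a, Ly6c1, Ly6g, Ly6f and Ly6h. The probes are 60 bases long. The probe of Ly6g lies at chr15:74989023-74989082 on the plus strand of the mm9 build that the scanner files use. Probe 1 of Ly6c1 lies at chr15:74877785-74877844 and probe 2 at chr15:74875495-74875554, both on the minus strand. The probe of Ly6i lies at chr15:74810484-74810543 and that of Ly6k at chr15:74627529-74627588, both on the minus strand. The 4 probes below are shown because Ly6g and Ly6c1 were called lower in a lesion while Ly6i and Ly6k were not called. Ly6e, also called lower, is not shown. Each of the 4 has a reading frame without a stop codon, as do all other probes of the 9 genes. Capitals mark TGC and TGT codons, which encode the cysteines of the Ly6/uPAR fold:
Ly6g: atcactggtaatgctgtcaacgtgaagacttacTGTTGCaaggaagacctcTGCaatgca
Ly6c1 probe 1: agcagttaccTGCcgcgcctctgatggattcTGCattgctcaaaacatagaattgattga
Ly6i: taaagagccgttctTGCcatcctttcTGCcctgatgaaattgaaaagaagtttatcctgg
Ly6k: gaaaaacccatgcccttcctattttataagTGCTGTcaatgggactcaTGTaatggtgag
The codon pattern that closes a Ly6/uPAR domain, written TGNTGNNNNNNNNNNNNNTGNAAN and searched on the probe strand, was present in the probes of Ly6g and Ly6k and in 0.1706% of the 55681 probes. Between probes of different members, the best ungapped match covered 22 to 27 of 60 bases. Probes were compared only with each other, so whether a probe also reads RNA of another member was not tested. No probe is named for Ly6c2, a close copy of Ly6c1, and whether the Ly6c1 probes also read Ly6c2 RNA was not tested, so values of Ly6c1 may stand for both genes. The files do not say whether a probe lies in coding sequence or in a UTR.

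RefSeq promoter sequences were matched for 3 of the 9 genes, Ly6g, Ly6c1 and Ly6f. They are shown because Ly6g and Ly6c1 were called lower in tumor versus tumor skin and Ly6f was not called. The 250 bases before the most upstream start lie at chr15:75155011-75155260 (Ly6g, plus strand), chr15:75048838-75049087 (Ly6c1, minus strand) and chr15:75268171-75268420 (Ly6f, plus strand) of GRCm38.p6. They are written in the direction of transcription, with capitals on GAGGAAGT, the form of site bound by the myeloid factor PU.1:
Ly6g: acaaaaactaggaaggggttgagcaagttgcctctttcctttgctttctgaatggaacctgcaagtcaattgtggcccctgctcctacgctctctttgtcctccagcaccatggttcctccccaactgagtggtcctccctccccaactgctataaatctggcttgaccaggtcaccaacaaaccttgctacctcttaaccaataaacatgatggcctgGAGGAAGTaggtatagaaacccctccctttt
Ly6c1: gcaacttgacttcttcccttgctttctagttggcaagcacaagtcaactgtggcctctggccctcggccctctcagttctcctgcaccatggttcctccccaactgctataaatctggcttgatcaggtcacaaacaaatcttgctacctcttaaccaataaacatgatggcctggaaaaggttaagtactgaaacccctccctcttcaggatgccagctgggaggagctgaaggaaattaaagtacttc
Ly6f: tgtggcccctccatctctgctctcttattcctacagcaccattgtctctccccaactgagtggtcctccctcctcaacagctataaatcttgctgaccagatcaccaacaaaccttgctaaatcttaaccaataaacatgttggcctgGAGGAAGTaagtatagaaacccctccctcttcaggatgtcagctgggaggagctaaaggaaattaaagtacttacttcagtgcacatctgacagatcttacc
Aligned over 179 to 206 bases, the sequences were 83.5% identical between Ly6g and Ly6c1, 88.8% between Ly6g and Ly6f and 84.5% between Ly6c1 and Ly6f. On both strands, 4 motifs were searched, and matches were allowed to overlap. GAGGAAGT began 31 bases before the start of Ly6g and 102 bases before that of Ly6f, was not in the Ly6c1 window, and was in 2.441% of 32851 windows of this length. TATAAA was in all 3, beginning 99 bases before the start in Ly6g, 143 in Ly6c1 and 169 in Ly6f, and was in 12.37% of all windows. The core of the interferon response element and the gamma-activated sequence TTCNNNGAA, in 2.977% and 7.02% of all windows, were in none of the 3. A match is a description of letters only.

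The values below are those of the deposited table, 1 log2 value per probe and array. Before they are read, 2 of its columns stand apart. Across all probes, the columns papilloma skin 1 and tumor 1 had a Spearman's rho of 0.588 and 0.827 with the scanner file of the same label and of 0.924 and 0.947 with that of tumor 2, while the other 7 columns reached 0.931 to 0.980 with their own file. The columns papilloma 2 and papilloma 3 were each closest to the file of the other, which leaves the papilloma mean as it is. The scanner files of papilloma skin 1, tumor skin 1 and tumor 1 had at least 90.7% of probes well above background and spike-in slopes of 0.678 to 0.894, against 44.2% to 64.2% and 1.04 to 1.06 on the other 6. No spot was saturated. The lesion comparisons are therefore also given without the columns papilloma skin 1 and tumor 1. On slide 1 lay the first array of each group, on slide 2 papilloma skin 2, papilloma 2 and tumor 2, and on slide 3 tumor skin 2 and papilloma 3. These are the slides of the scans, so the slide of the columns papilloma skin 1 and tumor 1 is in doubt. Each difference given below within slide 1 uses 1 of these columns. Each within slide 2 uses papilloma 2, whose column was closest to a scan on slide 3. A probe was called where its limma p, adjusted by Benjamini-Hochberg over all 55681 probes, was 0.05 or less, the log2 fold change was at least 1 in size and the mean log2 level at least 6.

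Ly6g, Ly6c1 and Ly6e were lower in neutrophils of tumors than in those of tumor skin, and none of the 9 genes was called higher in a lesion. In tumor versus tumor skin, 4 of the 11 probes were called lower, against 1.51% of all probes, and none higher, against 2.71%. In papilloma versus papilloma skin, 1 of the 11 was called lower, probe 1 of Ly6c1, against 1.00% of all probes, and none higher, against 2.18%. The median log2 fold change over the 11 probes was -0.69 in the tumor comparison and -0.07 in the papilloma comparison, with -0.02 and -0.01 over all probes. These medians moved with the setting. They were -0.26 and 0.27 without the columns papilloma skin 1 and tumor 1, and -0.10 and -0.27 with slide as a term. The tumor median was -0.22 without tumor skin 2, and the papilloma median was 0.11 without papilloma 2, -0.53 without papilloma skin 2, -0.37 without papilloma 1 and 0.34 in quantile normalized scanner values without the slide effect. Without the columns papilloma skin 1 and tumor 1, Ly6g alone was called in tumor versus tumor skin and no probe of the 11 in papilloma versus papilloma skin, where limma then gave 2 of them an unadjusted p under 0.05, as it did 18.3% of all probes. With slide as a term in the fit, none of the 4 probes was called in tumor versus tumor skin, with a log2 fold change of -2.16 (adjusted p = 0.0977) for Ly6g, -1.91 (adjusted p = 0.0584) and -1.73 (adjusted p = 0.0955) for the Ly6c1 probes and -1.02 (adjusted p = 0.133) for Ly6e. In that fit 5 of the 11 probes and 17.5% of all probes had an unadjusted p under 0.05. The 2 lesion comparisons share no array. With so few arrays, groups that do not overlap are common. Over all probes, lesion lay below skin without overlap for 17.8% and above it for 19.8% in the papilloma comparison, and for 26.4% and 25.7% in the tumor comparison. Tumor lay below papilloma for 18.2% and above it for 18.0%, and tumor skin lay below papilloma skin for 24.7% and above it for 24.2%.

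**Figure D1:**
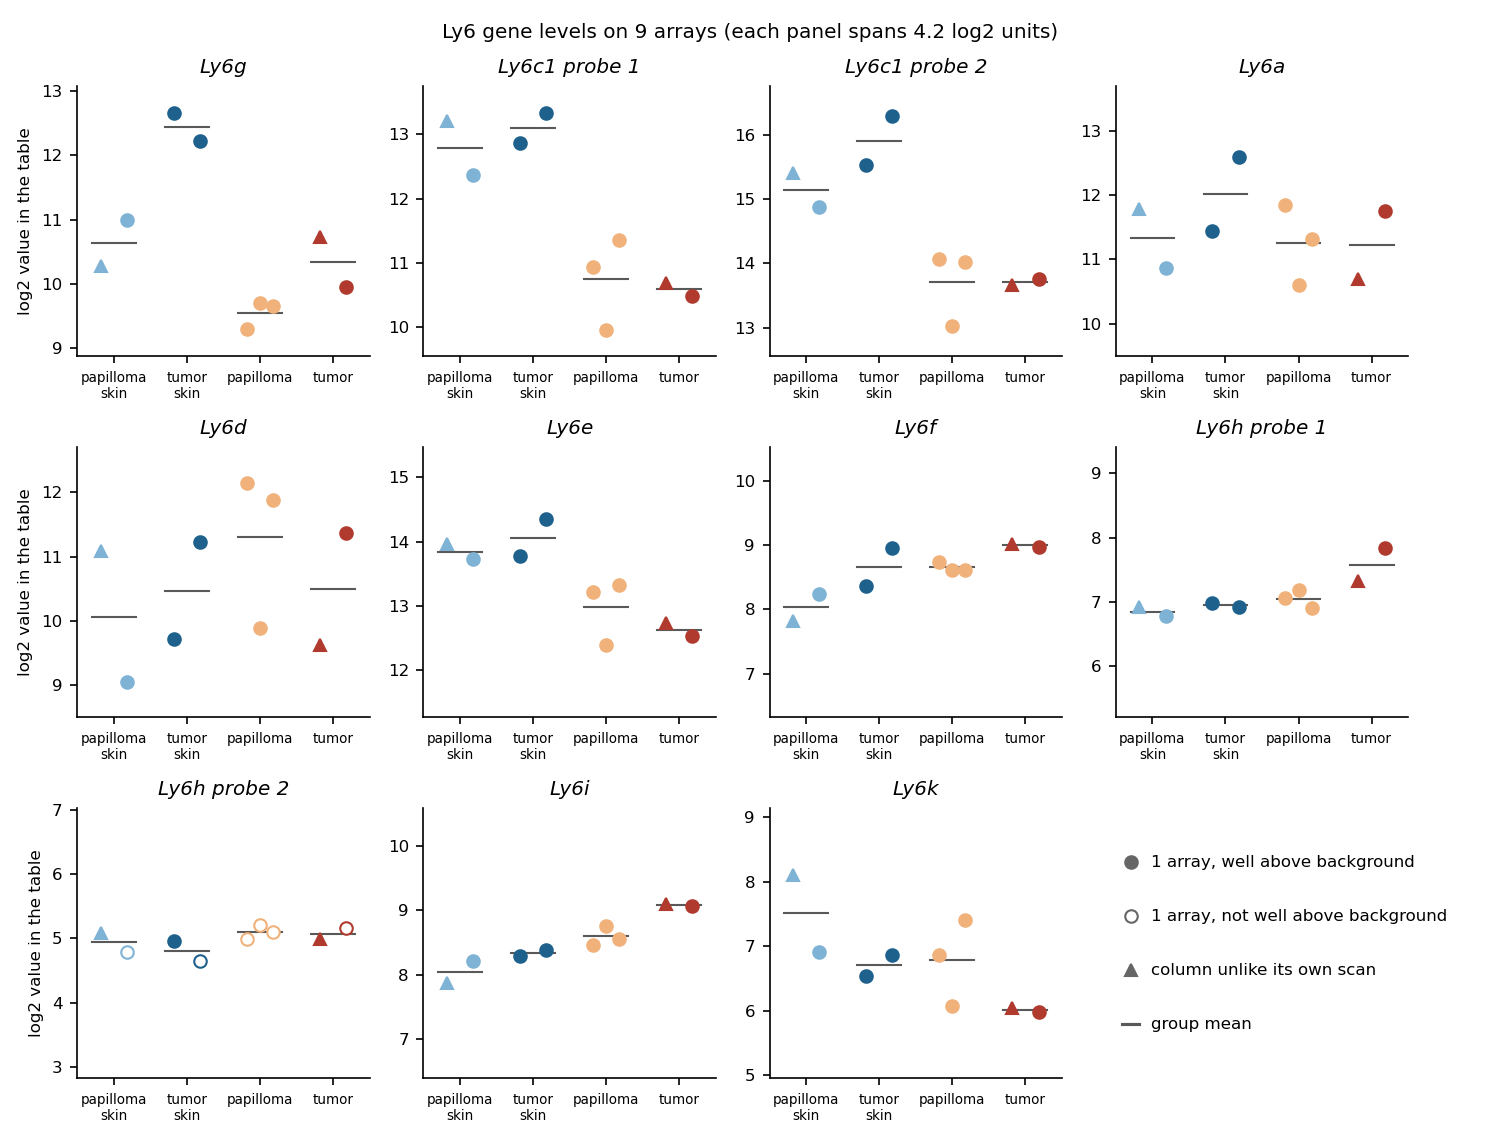
Log2 value in the deposited table (y axis, each panel spanning 4.2 log2 units) of the 11 Ly6 probes on 9 arrays, by group. Each point is 1 array, open where the probe was not well above background and a triangle for the 2 columns unlike their own scan, and lines are group means. Tumor skin stands highest for Ly6g, and both skin groups stand above both lesion groups for Ly6c1 and Ly6e.

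Ly6g, whose product defines these cells as neutrophils, was lower in tumor than in tumor skin, and its highest values were those of tumor skin. Its log2 value was 10.27 and 10.99 in papilloma skin, 12.65 and 12.22 in tumor skin, 9.30, 9.70 and 9.66 in papilloma, and 10.74 and 9.95 in tumor. Both tumor skin arrays were above the other 7, all 3 papilloma arrays were below the other 6, and papilloma skin and tumor overlapped. Group means ran from 12.44 ± 0.31 (SD, n = 2) in tumor skin through 10.63 ± 0.51 (n = 2) in papilloma skin and 10.35 ± 0.55 (n = 2) in tumor to 9.56 ± 0.22 (n = 3) in papilloma. In tumor, Ly6g fell by 2.09 on the log2 scale relative to tumor skin (SE 0.327, limma adjusted p = 0.00894). Between papilloma and papilloma skin the difference was -1.08 (95% interval -1.76 to -0.39, adjusted p = 0.0777), which was not called, and it was -1.43 (adjusted p = 0.0595) without the columns papilloma skin 1 and tumor 1. Within slide 1 the difference between tumor and tumor skin was -1.92, and that between papilloma and papilloma skin was -0.97 on slide 1 and -1.29 on slide 2. The fall in tumor was larger, at -2.48 (adjusted p = 0.0223), without the columns papilloma skin 1 and tumor 1, and it lost its call without the array tumor 2 (-1.70, adjusted p = 0.0650). In pooled sorted cells, fewer cells that express a gene and less RNA per cell cannot be told apart.

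Ly6c1 encodes Ly6C, and its 2 probes moved together. Probe 1 read 13.20 and 12.36 in papilloma skin, 12.87 and 13.34 in tumor skin, 10.94, 9.97 and 11.36 in papilloma, and 10.69 and 10.49 in tumor. Probe 2 read 15.41 and 14.88 in papilloma skin, 15.52 and 16.29 in tumor skin, 14.07, 13.02 and 14.03 in papilloma, and 13.67 and 13.76 in tumor. With either probe, all 4 skin arrays were above all 5 lesion arrays, papilloma and tumor overlapped, and the 2 kinds of skin overlapped with probe 1 only. In tumor versus tumor skin, probe 1 fell by 2.51 on the log2 scale (SE 0.444, adjusted p = 0.0135) and probe 2 fell by 2.19 (SE 0.393, adjusted p = 0.0142). In papilloma versus papilloma skin, probe 1 fell by 2.03 (SE 0.406, adjusted p = 0.0245), and probe 2 differed by -1.43 (SE 0.359, adjusted p = 0.0551), which was not called. Within slides, probe 1 differed by -2.26 and -2.40 between papilloma and papilloma skin, and by -2.18 between tumor and tumor skin.

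The calls on Ly6c1 leaned on single arrays. In tumor versus tumor skin, the adjusted p of probe 1 was 0.0544 without tumor 1, 0.0934 without tumor 2 and 0.0565 without tumor skin 2, and that of probe 2 was 0.0656, 0.0858 and 0.0586. In papilloma versus papilloma skin, probe 1 lost its call without papilloma 1 (-2.12, adjusted p = 0.0531) and without papilloma skin 1 (-1.61, adjusted p = 0.141). Without the columns papilloma skin 1 and tumor 1, the log2 fold changes of probe 1 and probe 2 in tumor versus tumor skin were -2.61 (adjusted p = 0.0662) and -2.15 (adjusted p = 0.0856), and in papilloma versus papilloma skin probe 2 was -1.17 (adjusted p = 0.306) and probe 1 was -1.61 (adjusted p = 0.204).

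Ly6e encodes a glycolipid-anchored protein of many cell types that is induced by interferon and restricts or aids entry of some viruses. It read 13.96 and 13.72 in papilloma skin, 13.78 and 14.35 in tumor skin, 13.22, 12.40 and 13.32 in papilloma, and 12.74 and 12.53 in tumor. All skin arrays were above all lesion arrays here too, and the 2 kinds of skin overlapped, as did papilloma and tumor. In tumor versus tumor skin, Ly6e fell by 1.43 on the log2 scale (SE 0.321, adjusted p = 0.0313). In papilloma versus papilloma skin it differed by -0.86 (SE 0.293, 95% interval -1.54 to -0.19, adjusted p = 0.139). The call in tumor was lost without tumor 1, tumor 2 or tumor skin 2 (adjusted p = 0.0886, 0.169 and 0.110), and without the columns papilloma skin 1 and tumor 1 the difference was -1.53 (adjusted p = 0.113) in tumor and -0.74 (adjusted p = 0.433) in papilloma. Over all 5 lesion and all 4 skin arrays of the table, Ly6e and both Ly6c1 probes lay lower in lesions without overlap, as did 4.65% of all probes. In quantile normalized scanner values without the slide effect, this separation was absent. Papilloma skin 1 lay below papilloma 1, and the 2 read 10.94 and 11.05 for probe 1 of Ly6c1, 14.28 and 14.30 for probe 2, and 12.66 and 13.29 for Ly6e. For Ly6e, tumor 1 at 13.70 also lay above tumor skin 1 at 13.42, so tumor and tumor skin overlapped as well.

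**Figure D2:**
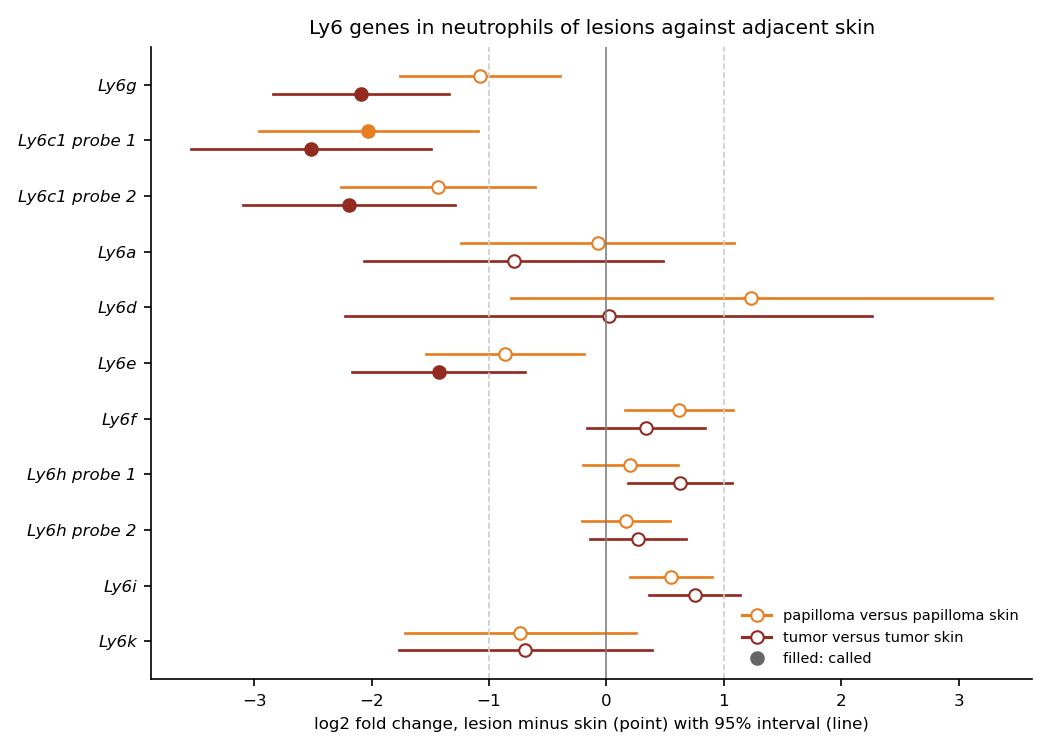
Log2 fold change of each Ly6 probe (x axis, lesion minus adjacent skin) with its 95% interval, for papilloma versus papilloma skin (orange) and tumor versus tumor skin (dark red). Filled points were called, dashed lines mark the fold minimum, and the 4 filled points in tumor lie between -2.51 and -1.43.

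Ly6i and Ly6f, neighbors of Ly6a and Ly6g whose functions are little known, had the opposite sign in the table. Ly6i read 7.88 and 8.21 in papilloma skin, 8.29 and 8.38 in tumor skin, 8.46, 8.76 and 8.56 in papilloma, and 9.10 and 9.07 in tumor. The 4 groups did not overlap, in the order papilloma skin, tumor skin, papilloma, tumor, and over all arrays Ly6i was higher in lesions without overlap, as were 7.49% of all probes. In tumor versus tumor skin Ly6i differed by 0.75 (SE 0.168, adjusted p = 0.0306), which is under the fold minimum, and in papilloma versus papilloma skin by 0.55 (adjusted p = 0.0780). Ly6f read 7.83 and 8.24 in papilloma skin, 8.36 and 8.95 in tumor skin, 8.73, 8.61 and 8.61 in papilloma, and 9.02 and 8.97 in tumor. Papilloma skin was lowest and tumor highest for Ly6f, while papilloma lay within the spread of tumor skin, and its differences of 0.62 in papilloma (adjusted p = 0.121) and 0.33 in tumor (adjusted p = 0.373) were not called. Over the 6 settings of the scanner values, tumor versus tumor skin ran from -0.55 to 1.20 for Ly6i, positive in 3, and from -0.76 to 0.07 for Ly6f, positive in 1. With papilloma skin 1 and tumor 1 left out, Ly6i was 0.39 in papilloma and 0.73 in tumor, and Ly6f was 0.42 and 0.31, with no adjusted p under 0.0898.

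Ly6a and Ly6d varied within groups more than between them. Ly6a, the Sca-1 gene of stem and endothelial cells and of activated lymphocytes, read 11.79 and 10.87 in papilloma skin, 11.44 and 12.58 in tumor skin, 11.85, 10.60 and 11.32 in papilloma, and 10.70 and 11.75 in tumor. All 4 groups overlapped, and the difference was -0.07 in papilloma (95% interval -1.24 to 1.09) and -0.79 in tumor (95% interval -2.06 to 0.48). Ly6d, a surface antigen of keratinocytes and of early lymphoid cells, read 11.08 and 9.06 in papilloma skin, 9.72 and 11.23 in tumor skin, 12.15, 9.89 and 11.87 in papilloma, and 9.62 and 11.36 in tumor. Its 95% intervals were -0.81 to 3.28 in papilloma and -2.22 to 2.26 in tumor, so that differences of several fold either way were not detectable with this number of arrays. Leaving out papilloma skin 1 and tumor 1, Ly6a was 0.39 in papilloma and -0.26 in tumor, and Ly6d was 2.25 and 0.89, with no adjusted p under 0.320.

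Ly6k and Ly6h, known mainly from testis and from brain, had lower values. Ly6k read 8.11 and 6.92 in papilloma skin, 6.54 and 6.87 in tumor skin, 6.86, 6.07 and 7.41 in papilloma, and 6.04 and 5.98 in tumor. Tumor was below each other group without overlap, but no comparison of Ly6k had an adjusted p under 0.328. Probe 1 of Ly6h read 6.92 and 6.78 in papilloma skin, 6.98 and 6.92 in tumor skin, 7.06, 7.19 and 6.91 in papilloma, and 7.32 and 7.83 in tumor, and differed by 0.63 in tumor versus tumor skin (adjusted p = 0.0778). Probe 2 of Ly6h lay between 4.64 and 5.21 and was well above background on 3 arrays only, the 3 with compressed signal, so it gives no measured level on the other 6. The other 10 probes were well above background on all 9 arrays. On the 7 other columns, without papilloma skin 1 and tumor 1, Ly6k was -0.14 in papilloma and -0.72 in tumor, and probe 1 of Ly6h was 0.27 and 0.88, with no adjusted p under 0.0607.

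Between stages of the same tissue no member was called. In tumor skin versus papilloma skin, where 0.260% of all probes were called, limma gave 2 of the 11 probes an unadjusted p under 0.05, as it did 22.7% of all probes. They were Ly6g, with a log2 fold change of 1.80 (95% interval 1.05 to 2.55, adjusted p = 0.0532), and Ly6f, with 0.63 (adjusted p = 0.156). The Ly6g difference was 2.38 within slide 1, and 1.45 (adjusted p = 0.273) without the columns papilloma skin 1 and tumor 1. In tumor versus papilloma, where 0.447% of all probes were called, 3 of the 11 probes and 14.4% of all probes had an unadjusted p under 0.05. The 3 were Ly6g (0.79, adjusted p = 0.286), Ly6i (0.49, adjusted p = 0.219) and probe 1 of Ly6h (0.53, adjusted p = 0.243). For Ly6c1 the difference between tumor and papilloma was -0.16 with probe 1 (95% interval -1.09 to 0.77) and 0.01 with probe 2 (95% interval -0.82 to 0.83). The lesion effect itself was compared between stages, a test in which 0.0269% of all probes were called and no member had an unadjusted p under 0.05. For Ly6g the effect was more negative in the tumor stage by 1.01 on the log2 scale (95% interval -2.03 to 0.00, adjusted p = 0.341), so a larger fall in tumors than in papillomas was not shown.

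**Figure D3:**
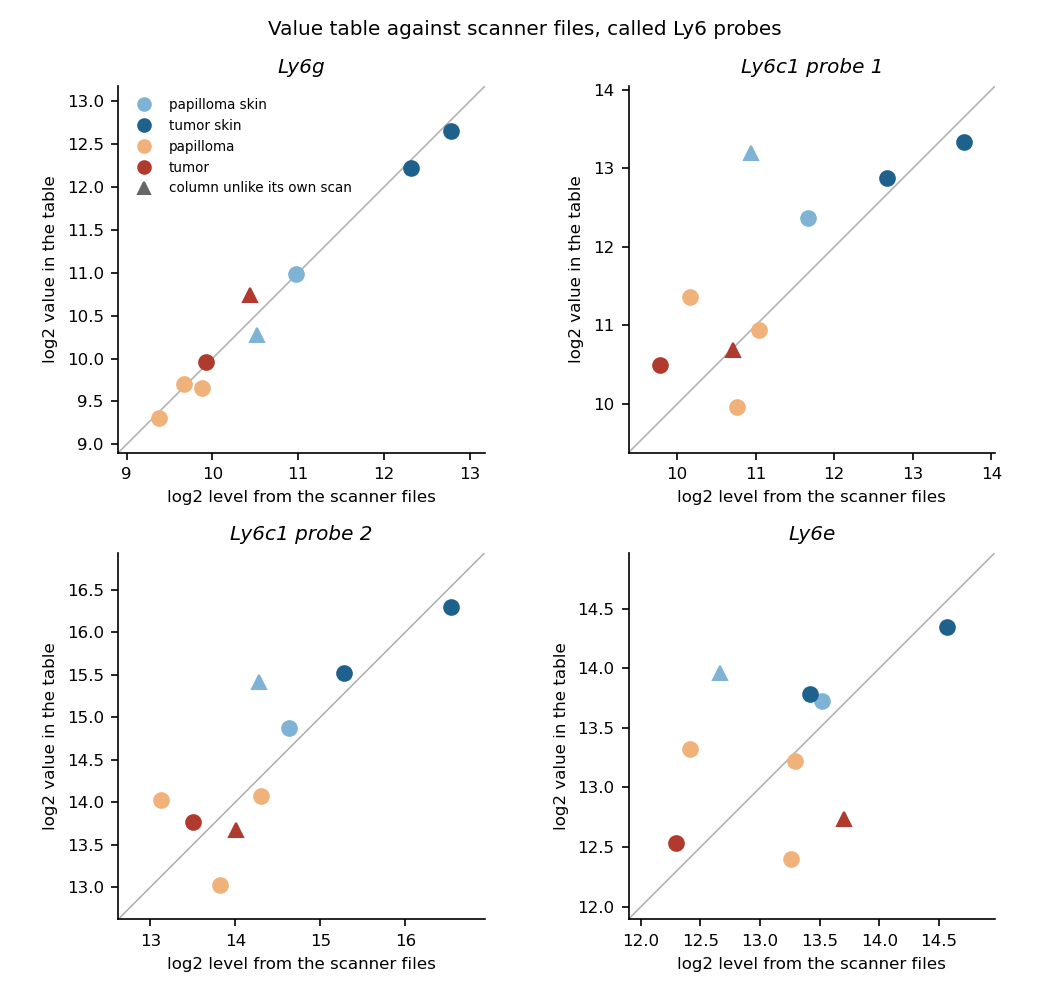
Log2 value in the deposited table (y axis) against the log2 level from the scanner files, quantile normalized and without the slide effect (x axis) for the 4 called probes, with 1 point per array and the line of equal values. Ly6g lies close to the line, while the papilloma skin 1 triangle of Ly6c1 probe 1 stands at 13.20 in the table and 10.94 in the scanner files.

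Ly6g had close values in the table and in the scanner files. Quantile normalized and without the slide effect, Ly6g read 10.52 and 10.98 in papilloma skin, 12.78 and 12.31 in tumor skin, 9.38, 9.67 and 9.87 in papilloma, and 10.43 and 9.93 in tumor. The groups stood in the same order as in the table. Across 6 settings of the scanner values, the difference of Ly6g between tumor and tumor skin was -2.41 to -2.18, and it was called in 1 of them. That setting was normexp background correction with the slide effect removed before the fit (-2.27, adjusted p = 0.0337). Such removal does not charge the fit for the slides. In quantile normalized values the difference was -2.37 either way, with a limma adjusted p of 0.126 after such removal and 0.9999 with slide as a term. Probe 1 of Ly6c1 read 10.94 on the scanner file of papilloma skin 1 against 13.20 in the table. Its difference between papilloma and papilloma skin was -1.88 to -0.13 over the 6 scanner settings, and the smallest came with 75th percentile scaling, which shifts the median of all probes by -0.41, so that relative to this median it was not lower. In the same setting probe 2 of Ly6c1 was 0.27 and Ly6e 0.90, so the sign of both in papilloma depended on the scaling. In tumor versus tumor skin, the 6 settings gave -2.96 to -2.40 for probe 1, -2.42 to -1.80 for probe 2 and -1.73 to -0.71 for Ly6e, with no call. For Ly6a in papilloma, where the table gave -0.07, the scanner files gave 0.35 to 1.69, also without a call.

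Among the members, the 2 probes of Ly6c1 had a Pearson's r of 0.974 over the 9 columns, and Ly6e followed them with 0.969 and 0.959. Ly6f and Ly6i had an r of 0.837, and Ly6g had 0.759 and 0.702 with the Ly6c1 probes. These are descriptions over 9 arrays that share groups and slides. Among 7353 probes with a gene symbol, well above background on all arrays and with a range of at least 1, the 5 genes most like Ly6g were Pram1, Rassf2, Klra9, Hmgb2 and Kif9, with r from 0.991 to 0.996. The 5 most like probe 2 of Ly6c1 were Psme1, Capns1, Acad11, Tecr and Fam173a, with r from 0.979 to 0.988.

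Markers of the labeled cell type were high in every group, except Mpo, which read 5.93 to 6.77 outside papilloma skin. S100a8 and S100a9, the calprotectin subunits of neutrophils, and Csf3r, the G-CSF receptor, differed by at most 0.30 between lesion and skin, without a call. Of 12 neutrophil markers, 4 were called lower in papilloma, where 1.17% of all genes were, and 4 in tumor, where 1.61% were, and none higher. They were Ngp, Camp and Ltf, which encode proteins of the secondary granules, in both, and Mpo in papilloma and Ly6g in tumor. Camp had a log2 fold change of -4.13 in papilloma and -3.72 in tumor. The summed level of the 12 markers was 19.95 to 20.15 on the log2 scale in skin and 19.64 to 19.85 in lesions. Their median log2 fold change was -0.60 in papilloma and -0.42 in tumor, with -0.01 over all genes in each. The part of such markers in the Ly6 results was not tested.

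Markers of other cells also moved between skin and lesion. Over all genes, 1.17% were called lower in papilloma and 1.61% in tumor, and 2.43% and 2.75% higher. Of 8 eosinophil markers, 5 were called lower in papilloma and 5 in tumor, among them Ear2 with -3.87 and -3.29, and 1 was called higher in tumor, Siglec5 with 1.49. The paper counts Siglec5, which encodes Siglec F, among the genes upregulated in the lesion neutrophils themselves. The eosinophil list summed to 12.98 to 14.01 in skin and 11.30 to 11.95 in lesions. The defining eosinophil gene Epx was at 5.01 to 6.31 and well above background on 3 arrays. Of 8 B and plasma cell markers, 1 was called lower in papilloma and 3 in tumor, and their sum was 13.39 to 15.28 in skin and 9.34 to 10.63 in lesions. Of 9 T cell markers, which belong to a cell type that can carry Ly6C and Ly6A, 1 was called lower in tumor, Cd3d with -1.41, and the sum was 12.47 to 12.71 in skin and 11.84 to 12.19 in lesions. Of 10 monocyte and macrophage markers, the other main carriers of Ly6C, 1 was called lower in each lesion, Emr1 with -3.01 and -2.10, and the sum was 12.71 to 13.78 in skin and 12.23 to 12.90 in lesions.

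In the other direction, keratinocyte markers were called higher in lesions, 3 of 14 in papilloma, where 2.43% of all genes were called higher, and 4 of 14 in tumor, where 2.75% were, and their summed level was 11.97 to 12.98 in skin and 13.38 to 15.57 in lesions. Endothelial markers were higher for 6 of 9 in papilloma and 2 of 9 in tumor, and summed to 10.46 to 11.20 in skin and 10.84 to 12.67 in lesions. Of 8 fibroblast markers, 1 was higher in papilloma and 1 in tumor, Pdgfrb both times, and Dcn was lower in tumor, with sums of 13.11 to 14.82 in skin and 12.59 to 15.71 in lesions. Ly6a and Ly6d, which endothelial cells and keratinocytes are known to express, were not called in either lesion. When the columns papilloma skin 1 and tumor 1 were left out, calls in papilloma and tumor were 3 and 5 lower for neutrophil, 5 and 5 lower for eosinophil, 1 and 1 lower for monocyte and macrophage, 1 and 1 lower for T cell, and 0 and 1 lower for B and plasma cell markers. They were 3 and 5 higher for keratinocyte, 3 and 2 higher for endothelial and 5 and 3 higher for fibroblast markers, and Siglec5 and Dcn were no longer called. The stain of the sort also held antibodies against CD45, CD3, B220, NKp46, CD11c and MHCII, and the methods state that the sorted cells were nearly pure. What these cells contribute to the Ly6 values was not tested.

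The wider Ly6/uPAR family, had a probe for 32 of 37 listed genes. It includes Plaur, the urokinase receptor of neutrophils and other migrating cells, which read 14.98 to 16.16 and differed by 0.67 in papilloma (adjusted p = 0.139) and 0.32 in tumor (adjusted p = 0.462). Of the 32, 1 was called lower and 1 higher in papilloma, against 1.17% and 2.43% of all genes, and 3 lower and 1 higher in tumor, against 1.61% and 2.75%. The median log2 fold change was 0.10 and -0.18, with -0.01 over all genes both times. Ly6g5b, a family member in the major histocompatibility complex, was lower in both lesions. It read 9.26 and 8.70 in papilloma skin, 8.42 and 8.69 in tumor skin, 7.57, 7.09 and 7.67 in papilloma, and 7.04 and 7.02 in tumor, and fell by 1.53 in each comparison (adjusted p = 0.00633 and 0.00942). All its skin arrays were above all its lesion arrays. Lypd6b and Lypd2 were lower in tumor by 1.33 and 1.09. Psca, an antigen of surface epithelia, rose by 2.43 in tumor (adjusted p = 0.0307), and Gpihbp1, which holds lipoprotein lipase on capillary endothelium, rose by 1.41 in papilloma (adjusted p = 0.0315). Without the columns papilloma skin 1 and tumor 1, Lypd6b was lower in papilloma in place of Ly6g5b and none higher, and 3 were lower and 2 higher in tumor, with Ly6g5b, Lypd6b, Lypd2 and Psca still called in tumor.

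**Figure D4:**
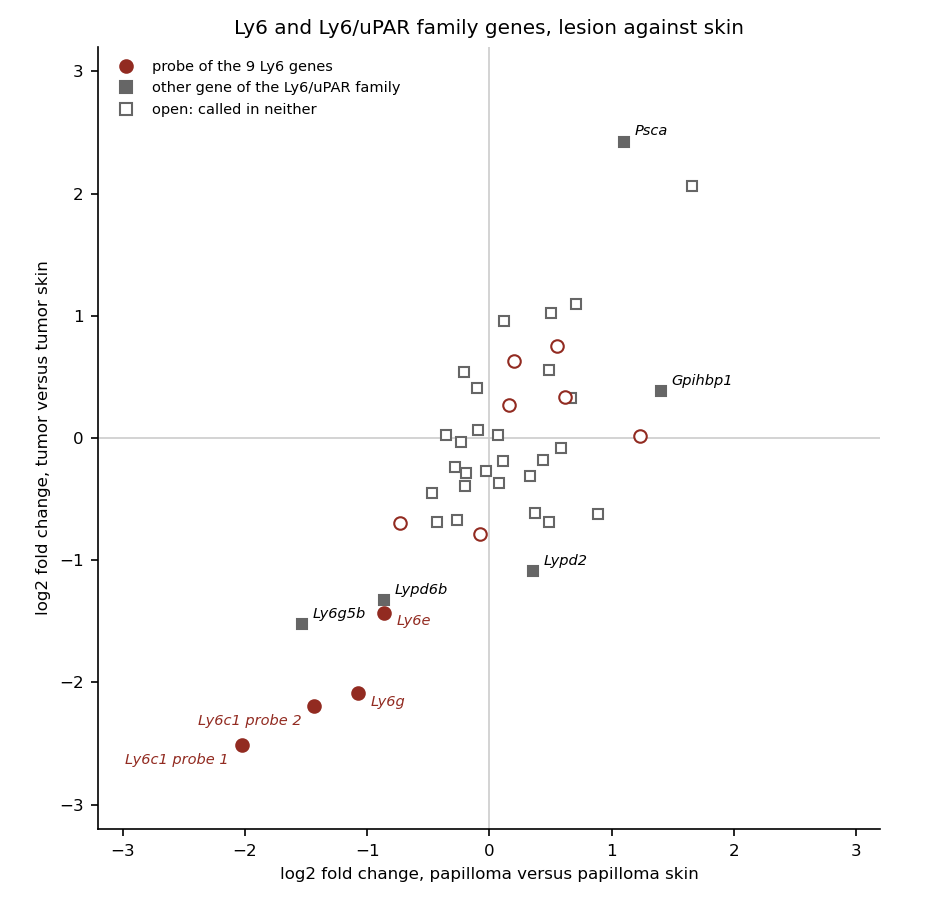
Log2 fold change of the 11 probes of the 9 Ly6 genes (red circles) and of 32 other Ly6/uPAR genes (grey squares) in papilloma versus papilloma skin (x axis) and tumor versus tumor skin (y axis). Filled symbols, which are named, were called in at least 1 comparison. Ly6g, Ly6c1, Ly6e, Ly6g5b and Lypd6b stand at the lower left, and Psca at the top.

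Other interferon-stimulated genes were counted beside Ly6a, Ly6c1 and Ly6e. Of 25 listed genes, none was called lower in tumor versus tumor skin, against 1.61% of all genes, and 6 were called higher, against 2.75%, namely Rsad2, Ifit1, Isg15, Usp18, Irgm1 and Cxcl10. Rsad2, an antiviral enzyme, rose by 1.97 (adjusted p = 0.00550) and Ifit1 by 1.77, while Ly6e fell by 1.43. In papilloma versus papilloma skin, 2 were called lower, against 1.17% of all genes, Oas1a with -1.09 and Ifi27l2a with -1.61, and none higher, against 2.43%. The median of the list was 0.16 in tumor and -0.32 in papilloma. Without the columns papilloma skin 1 and tumor 1, 3 were called higher in tumor, Rsad2, Ifit1 and Cxcl10, and none in papilloma. The part of interferon in the Ly6 values was not tested.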

How the data were processed

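RNA of the 4 groups was hybridized to 9 Agilent arrays in one color, and per the file headers the scanner files hold spot intensity from Feature Extraction 10.7.3.1, background-subtracted, on the mm9 build. The value table that the authors deposited holds log2 levels, and the methods name limma's quantile normalization followed by ComBat for the chips. Which of these steps the table holds is not stated. Groups came from the sample labels. The table was fitted with limma 3.58.1 in R 4.3.3 (lmFit, eBayes, 4 group means, all 9 columns), without a slide term, and the thresholds are those of the methods. Lists were tested per gene name, on the median of its probes, with names updated through RefSeq. For alternatives, processed intensity was log2 transformed, with outlier spots left out and spots of a probe averaged. It was then scaled to the 75th percentile, or quantile normalized with and without the slide. In the normexp setting (offset 50), mean spot signal was corrected for background, log2 transformed and quantile normalized, and the slide effect was removed before the fit. The fit was tested on simulated data. The number of arrays limits the precision. Python 3.11.15, pandas 2.3.3, numpy 2.4.6, Biopython 1.88 and matplotlib 3.10.9 were used. All probes of the 9 genes are named, and of the lists the genes that were called and those of highest level, while Csf3r, Ear2 and Epx were named with their values known. The members and lists were chosen with earlier results of these data known.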

Additional observations from a re-analysis of the deposited data

How the results depend on the processing

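In the comparison in which it was called, no probe of the 9 genes changed sign in any alternative. Counts are ordered as papilloma against its skin, tumor against its skin, tumor against papilloma, skin against skin, and the difference of lesion effects. The table gave 1769, 2346, 249, 145 and 15 called probes. Deviations of same-numbered arrays had r of 0.16 and 0.53 between papilloma and its skin and 0.39 between tumor and its skin, where 2 arrays a group force both pairs to 1 value. Across stages r was -0.96 to -0.14, which does not bear on pairs of lesion and skin. The sample labels do not state whether a lesion and a skin array of the same number came from the same mice. The numbers were not taken as pairs in the main fit. The replicate block gave 552, 737, 1, 0 and 0 and left 1 member called, probe 1 of Ly6c1 in tumor versus tumor skin, and the crossed block gave 2 for the skin comparison. With slide as a term there were 981, 209, 0, 0 and 0, with 1 member, probe 1 of Ly6c1 in papilloma. Without the columns papilloma skin 1 and tumor 1 there were 1018, 1759, 0, 0 and 0. Genes in place of probes gave 1516 in tumor versus tumor skin and 31 for the difference of effects, no level minimum gave 260 and the filter on dim probes 64 in the skin comparison. Leaving out 1 array gave 1262 to 1877, 804 to 2382, 25 to 306, 0 to 9 and 0 to 4, and the lowest count in tumor versus tumor skin came without tumor 2, with no member called. From the scanner files, 75th percentile scaling, quantile normalization with and without a slide term, and the 6 arrays of full spike-in slope gave 0 in all 5 comparisons with limma, where 147 to 7807 probes had an unadjusted p under 0.05. Removal of the slide effect before the fit gave 718, 5, 0, 0 and 0, and normexp with the same removal gave 1151, 184, 0, 0 and 0. The cause was not tested.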
